A study of Mus musculus with 12 samples.

Results

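The genes described here are Toll-like receptor (TLR) genes of the mouse, Tlr1, Tlr2, Tlr3, Tlr4, Tlr6, Tlr7, Tlr8, Tlr9 and Tlr13, together with Cd14, the gene of a co-receptor for lipopolysaccharide (LPS). They were chosen by name and make up 10 of the 23997 gene names measured. Each of the 10 genes had at least 1 FPKM (fragments per kilobase of transcript, corrected for library size) in every library. RNA-seq was performed on bone marrow-derived macrophages (BMDMs) of male C57BL/6 mice aged 8 to 10 weeks. The mice were either wild-type (WT) or Pim1-/-, a line in which exons I–V of the kinase gene Pim1 were deleted with CRISPR-Cas9. Marrow cells of both genotypes were cultured with recombinant human M-CSF at 10 ng/ml for 7 days. They were then left untreated or received LPS at 100 ng/ml for 4 h, so that the 4 groups were untreated WT, untreated Pim1-/-, LPS-treated WT and LPS-treated Pim1-/- BMDMs, with 3 libraries in each. The labels do not say whether the libraries of a group came from separate mice or cultures, so p-values measure only the spread between these libraries, which may be technical.

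TLRs are membrane proteins that bind molecules typical of microbes and signal through adaptors that share their intracellular TIR domain. TLR1, TLR2, TLR4 and TLR6 sit at the cell surface, where TLR2 pairs with TLR1 or TLR6 to bind bacterial lipopeptides and TLR4 binds LPS together with MD-2, the product of Ly96, after CD14 has passed the LPS on. TLR3, TLR7, TLR8, TLR9 and TLR13 sit in endosomes and bind nucleic acids. Macrophages are among the cells known for carrying most members of the family, and LPS, the ligand of TLR4, is known to alter the transcription of other members.

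In the mouse genome (GRCm38, GENCODE M21) the surface receptor genes lie on autosomes, Tlr2 at chr3:83836272-83841767, Tlr4 at chr4:66827584-66930284, Tlr1 at chr5:64924679-64933563 and Tlr6 at chr5:64952031-64960097, and Cd14 lies on chromosome 18. Of the endosomal receptor genes, Tlr3 at chr8:45395665-45411080 and Tlr9 at chr9:106222598-106226883 are autosomal, while Tlr7 at chrX:167304929-167330558, Tlr8 at chrX:167242696-167264329 and Tlr13 at chrX:106143204-106160493 are X-linked. The deposited values are given per gene and not per transcript or exon.

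About 35700000 to 46300000 fragments per library were assigned to genes, estimated from the steps between low values, and the value of a TLR gene or Cd14 in a library rested on about 240 (Tlr9) to 81770 (Cd14) fragments. Within groups the median coefficient of variation of genes at 10 FPKM or more was 3.03% to 5.12%. Pim1, the deleted gene, was at 24.96, 21.53 and 22.30 FPKM in untreated WT cells and at 8.695, 8.003 and 9.506 FPKM in untreated Pim1-/- cells. After LPS it stood at 665.0, 630.2 and 640.9 FPKM in WT and at 215.8, 205.0 and 235.8 FPKM in Pim1-/- cells, so that the genotypes did not overlap. Reads were still assigned to Pim1 in the Pim1-/- libraries, at 38.1% of the WT mean untreated and 33.9% after LPS, and rose 25.1-fold with LPS there. The values are per gene and do not show which exons these reads came from, so they show a lower level in every library labelled Pim1-/- but not the deletion itself. Gm26885, a gene on the opposite strand, overlaps Pim1. All 10 macrophage markers listed (among them Csf1r, Lyz2 and Mertk) were at 1 FPKM or more in each group, while the summed level of the listed markers of dendritic cells, B cells, neutrophils, T and NK cells or stromal cells stayed at or below 8.20 FPKM in every library.

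In untreated WT BMDMs the endosomal receptors made up most TLR transcripts. The summed level of the 9 TLR genes was 343 ± 12 FPKM (SD, n = 3 here and below), and Tlr3, Tlr7, Tlr8, Tlr9 and Tlr13 together held 73.7% ± 0.42 of it. Cd14 had the highest level of the 10 genes at 167 FPKM, followed by Tlr7 at 121, Tlr13 at 70.5, Tlr2 and Tlr8 at 46.2 each, Tlr4 at 21.3, Tlr1 at 16.4, Tlr9 at 12.6, Tlr6 at 5.99 and Tlr3 at 2.56 FPKM. Only the neighbours Tlr2 and Tlr8 overlapped in this order. In untreated Pim1-/- cells the order changed, and Tlr13 at 111 FPKM passed Tlr7 at 80.6, while Tlr9 at 1.91 moved to the last place, below Tlr3 at 2.39 FPKM. Tlr4 at 28.7 and Tlr8 at 24.0 FPKM were the only neighbours that overlapped there.

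**Figure D1:**
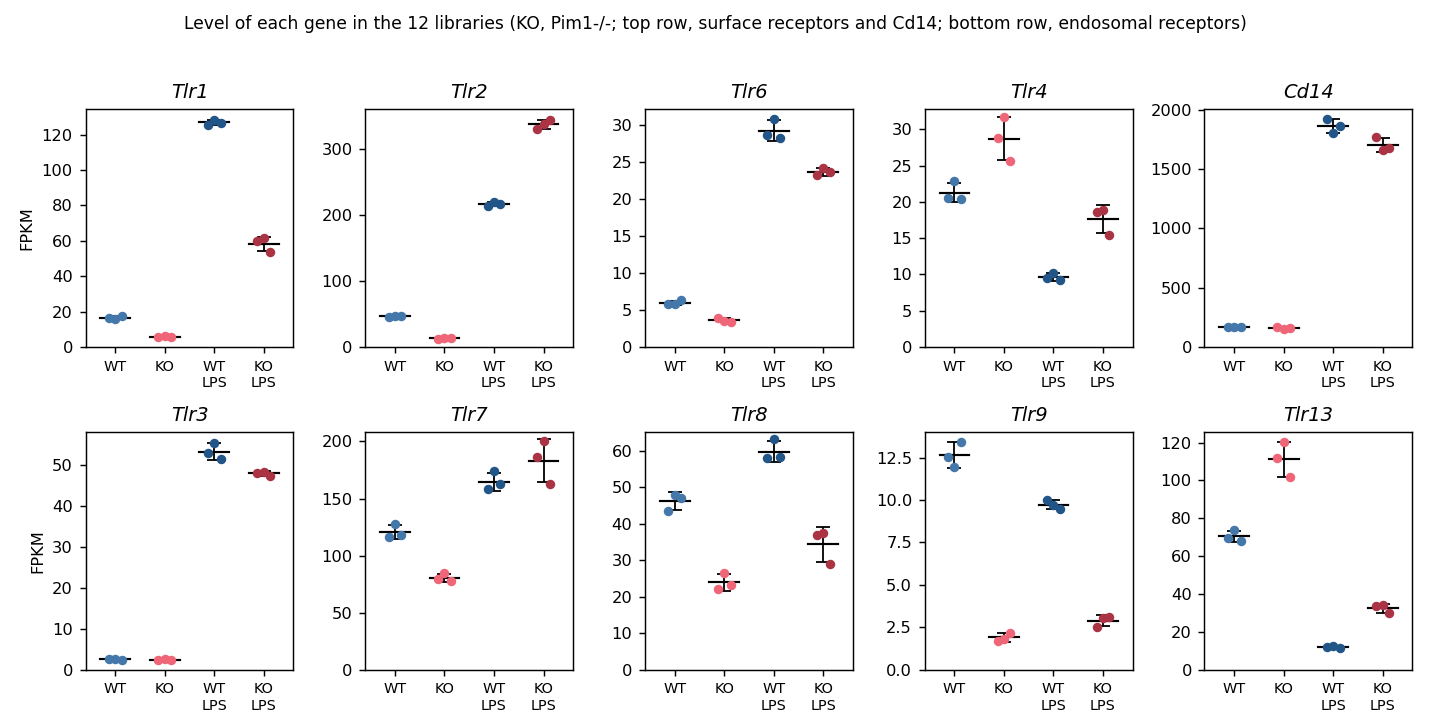
Level of each gene in FPKM (vertical axes, each from 0) in the 12 libraries, with 4 groups along each horizontal axis; points are libraries, the long bar is the mean and the whiskers are the SD of 3 libraries. Tlr9 stood below 3.1 FPKM in all 6 Pim1-/- libraries and at 9.485 FPKM or above in all 6 WT libraries, and Tlr2 was lowest in untreated Pim1-/- and highest in LPS-treated Pim1-/- cells.

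The first comparison asked how BMDMs without Pim1 differed from WT before any stimulus. Tlr9, Tlr2 and Tlr1 were lower by more than 2-fold in untreated Pim1-/- cells, Tlr8, Tlr6 and Tlr7 were lower by less, and Tlr13 and Tlr4 were higher. In the limma fit over 10581 genes, a gene passed the test at a false discovery rate (FDR) under 0.1, which 6 of the 10 genes did with a lower and 2 with a higher level. Over all genes tested 44.2% were lower and 34.6% higher by the same rule, so these counts are near the background. More than 2-fold and past the test were 3 genes lower, against 3.37% of all genes, and none higher (0 of 10), against 4.40%. The genotypes did not overlap in 8 of the 10 genes, against 78.4% of all genes. The median log2 difference was -0.59 over the 10 genes and -0.05 over all genes tested. Macrophage markers moved with genotype as well. The summed level of the 10 markers was 27959 to 29993 FPKM in untreated WT and 14412 to 15318 FPKM in untreated Pim1-/- libraries, most of it Lyz2, and all 10 were lower in Pim1-/- cells, with log2 differences from -0.28 (Cd68) to -1.67 (Fcgr1). The part of these marker levels in the TLR differences was not tested, and in bulk RNA fewer cells of a type and less RNA per cell cannot be told apart.

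Among the surface receptors, Tlr2, the shared partner in the lipopeptide receptors, showed the largest genotype difference in untreated cells. It was at 45.09, 47.39 and 46.22 FPKM in the WT libraries and at 12.78, 13.10 and 13.71 FPKM in the Pim1-/- libraries. All Pim1-/- values were thus below all WT values, and the means differed 3.50-fold (log2 difference -1.73 ± 0.039 (SE), limma adjusted p = 5.5e-15). All log2 differences here are on the log2(FPKM + 1) scale, which understates the change of low genes, and adjusted p-values are Benjamini-Hochberg values over the 10581 genes. Tlr1, which binds triacylated lipopeptides with TLR2, was at 16.14, 15.72 and 17.38 FPKM in WT and at 5.441, 6.154 and 5.843 FPKM in Pim1-/- cells, 2.82-fold lower with no overlap (log2 difference -1.35 ± 0.056, adjusted p = 7.3e-12). Tlr6, the partner of TLR2 for diacylated lipopeptides, went from 5.871, 5.811 and 6.302 FPKM in WT to 3.916, 3.512 and 3.368 FPKM in Pim1-/- cells, again with no overlap. Its mean was 1.67-fold lower (log2 difference -0.61 ± 0.054, adjusted p = 7.6e-08). Tlr1 and Tlr6 are neighbours on chromosome 5 (GRCm38, minus strand, 18467 bases apart) and share sequence. Of the 50-base stretches of the Tlr1 transcript 15.3% also occur in Tlr6, and 12.6% of those of Tlr6 occur in another gene, so reads could pass between them and their values are uncertain to that extent.

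Tlr4 and Cd14, which act together on LPS, did not follow the lipopeptide receptors. Tlr4 was at 20.55, 22.84 and 20.45 FPKM in untreated WT and at 28.83, 31.66 and 25.69 FPKM in untreated Pim1-/- cells. The groups did not overlap, and the mean was 1.35-fold higher in Pim1-/- cells (log2 difference 0.41 ± 0.080, adjusted p = 0.00025). Cd14 stood at 170.6, 167.5 and 164.3 FPKM in WT and at 168.0, 150.7 and 162.2 FPKM in Pim1-/- cells, and the groups overlapped. Its log2 difference of -0.06 (95% interval -0.16 to 0.03) did not pass the test (adjusted p = 0.22), but it passed with the replicate number as a block (adjusted p = 0.083), and without untreated Pim1-/- replicate 1 the log2 difference was -0.10 (adjusted p = 0.086). Under quantile normalization it was -0.08 and also passed (adjusted p = 0.092). The transcript ratio of Cd14 to Tlr4 was 7.89 ± 0.50 in WT and 5.63 ± 0.79 in Pim1-/- cells. Ly96, whose product MD-2 completes the LPS receptor, was lower in Pim1-/- cells (27.0 ± 2.5 against 21.5 ± 0.37 FPKM, log2 difference -0.31, adjusted p = 0.00016), and the ratio of Tlr4 to Ly96 was 0.791 ± 0.045 in WT and 1.33 ± 0.12 in Pim1-/- cells.

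Of the endosomal receptors, Tlr9, the receptor for DNA rich in unmethylated CpG, differed most. It was at 12.52, 11.93 and 13.44 FPKM in untreated WT and at 1.713, 1.811 and 2.191 FPKM in untreated Pim1-/- libraries. With no overlap between the groups, the mean was 6.63-fold lower in Pim1-/- cells (log2 difference -2.23 ± 0.072, adjusted p = 3.6e-13), the largest genotype difference of the 10 genes. The summed levels of listed markers of dendritic cells and of B cells, other cell types that transcribe Tlr9, were low in untreated cells and lower in Pim1-/- cells. The 7 listed dendritic cell markers summed to 1.37 to 1.56 FPKM in WT and to 0.699 to 0.801 FPKM in Pim1-/- libraries. Most of this difference was Siglech, a marker of plasmacytoid dendritic cells, at a mean of 0.753 and 0.0534 FPKM. Ccr9, Flt3, Xcr1 and Clec9a were also lower, at no more than 0.0826 FPKM. Cd209a (0.521 in WT and 0.603 FPKM in Pim1-/- cells) and Zbtb46 (0.0498 and 0.0537 FPKM) went the other way. The listed B cell markers summed to 1.35 to 1.57 FPKM in WT and to 0.831 to 1.12 FPKM in Pim1-/- libraries, nearly all of it Cd79b at 1.47 and 0.973 FPKM (log2 difference -0.33, adjusted p = 0.0018), with Pax5 listed at 0. The part of these cell types in the Tlr9 difference was not tested. Tlr8 was at 43.52, 47.97 and 47.20 FPKM in WT and at 22.10, 26.49 and 23.30 FPKM in Pim1-/- cells. This was 1.93-fold lower with no overlap (log2 difference -0.92 ± 0.086, adjusted p = 1.2e-07). Tlr7, a receptor for single-stranded RNA that lies next to Tlr8 on chromosome X (GRCm38, minus strand, 40599 bases apart), went from 116.6, 127.6 and 117.8 FPKM to 79.24, 84.79 and 77.78 FPKM. Its mean was at 66.8% of that in WT with no overlap (log2 difference -0.58 ± 0.066, adjusted p = 1.2e-06), and the ratio of Tlr7 to Tlr8 was 2.61 ± 0.10 in WT and 3.37 ± 0.20 in Pim1-/- cells.

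Tlr13, the mouse receptor for a sequence in bacterial ribosomal RNA, went the other way. It was at 69.54, 73.85 and 68.19 FPKM in untreated WT and at 111.6, 120.1 and 101.8 FPKM in untreated Pim1-/- cells. The mean was 1.58-fold higher with no overlap (log2 difference 0.65 ± 0.063, adjusted p = 2e-07). Tlr13 held 20.6% ± 0.44 of the summed TLR level in WT and 40.9% ± 1.0 in Pim1-/- cells, while Tlr2 held 13.5% ± 0.16 and 4.88% ± 0.43. Tlr3, the receptor for long RNA duplexes that signals through TRIF alone, was at 2.662, 2.603 and 2.411 FPKM in WT and at 2.269, 2.559 and 2.327 FPKM in Pim1-/- cells. The groups overlapped and its log2 difference of -0.07 (95% interval -0.18 to 0.03) did not pass the test (adjusted p = 0.19), although without untreated Pim1-/- replicate 2 it was -0.11 with an adjusted p of 0.074. Gm45542, on the opposite strand, overlaps Tlr3. The paper names a stranded library kit, but whether reads were counted by strand is not given in the sources used here.

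**Figure D2:**
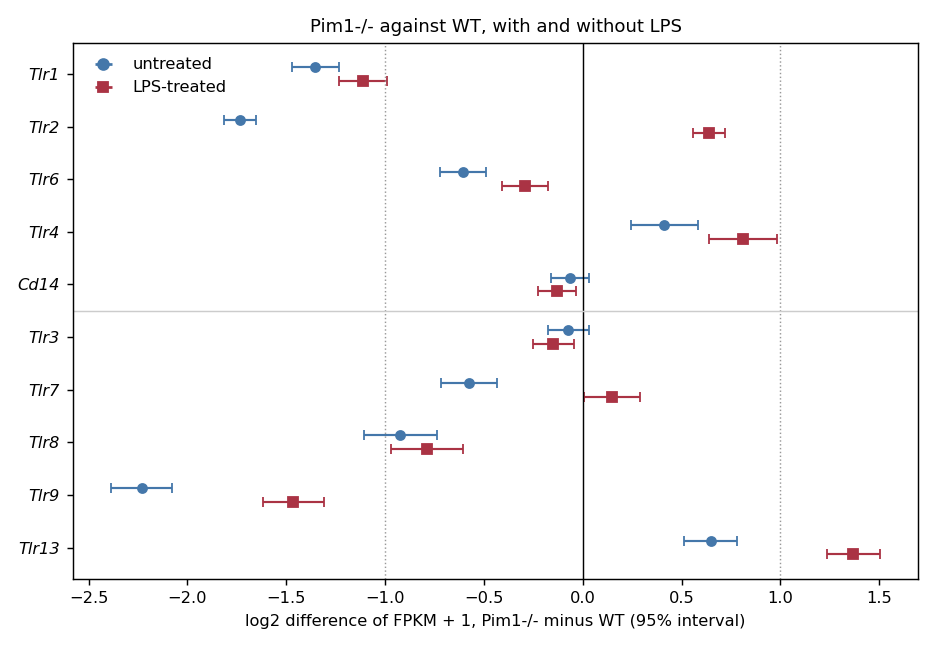
Log2 difference of FPKM + 1 between Pim1-/- and WT BMDMs (horizontal axis) for each gene, untreated (circles) and after LPS (squares), with 95% intervals from the limma fit; dotted lines mark 2-fold. Tlr2 lies at -1.73 without LPS and at 0.64 after LPS, while Tlr1, Tlr6, Tlr8 and Tlr9 lie left of 0 and Tlr4 and Tlr13 right of 0 in both.

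The second comparison set LPS-treated WT against untreated WT cells and asked how LPS moved its own receptor and the rest of the family. Tlr3, Cd14, Tlr1, Tlr2 and Tlr6 rose and Tlr13 and Tlr4 fell, each by more than 2-fold. Past the test were 7 of the 10 genes with a higher level, against 45.8% of all genes, and 3 with a lower one, against 45.4%, where the 7 include Tlr7 and Tlr8, whose direction depended on the scaling of libraries. More than 2-fold higher were 5, against 20.1% of all genes, and more than 2-fold lower 2, against 14.7%. Untreated and LPS-treated WT libraries did not overlap in any of the 10 genes, as in 90.4% of all genes. The median log2 difference was 1.28 over the 10 genes and 0.00 over all genes. The deposited values summed to 452511 to 489710 FPKM in untreated and to 713307 to 849323 FPKM in LPS-treated libraries, and the direction of small LPS differences depended on this. With libraries scaled to equal sums the median log2 difference of all genes moved to -0.67 in WT and -0.58 in Pim1-/- cells. The share of higher genes among those past 2-fold then fell from 57.8% to 24.1% in WT and from 58.4% to 25.7% in Pim1-/- cells, and to 47.4% and 49.4% under quantile normalization.

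Cd14 was at 1916, 1802 and 1864 FPKM in LPS-treated WT cells, 11.1 times its untreated mean (log2 difference 3.47 ± 0.046, adjusted p = 6.1e-19), and the difference was 2.47 under quantile normalization. Tlr4 fell to 9.497, 10.18 and 9.167 FPKM, a mean 2.21-fold lower than in untreated WT cells (log2 difference -1.07 ± 0.080, adjusted p = 2.8e-09), and the difference was -1.33 under quantile normalization. The LPS co-receptor and the LPS receptor thus moved apart, and the ratio of Cd14 to Tlr4 went from 7.89 ± 0.50 to 194 ± 15, a ratio within each library, which a common scaling factor leaves as it is but quantile normalization does not. Tlr1 reached 125.5, 128.4 and 126.8 FPKM in LPS-treated WT cells, 7.73-fold above untreated (log2 difference 2.88 ± 0.056, adjusted p = 7.4e-17), and the difference was 2.21 under quantile normalization. Tlr6 reached 28.70, 30.84 and 28.29 FPKM, 4.88-fold above untreated (log2 difference 2.11 ± 0.054, adjusted p = 2.4e-15), and the difference was 1.37 with equal sums and 1.88 under quantile normalization. Tlr2 reached 213.4, 219.8 and 216.1 FPKM, 4.68-fold above untreated (log2 difference 2.203 ± 0.039, adjusted p = 2e-17), and the difference was 1.40 and 1.24 under these scalings.

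The endosomal receptors split after LPS. Tlr3 rose to 52.95, 55.52 and 51.45 FPKM in WT cells, 20.8-fold above untreated and the largest rise of the 10 genes (log2 difference 3.93 ± 0.049, adjusted p = 2.9e-19). Tlr13 fell to 11.78, 12.51 and 11.57 FPKM, 5.90-fold below untreated (log2 difference -2.47 ± 0.063, adjusted p = 2.4e-15). Under quantile normalization the differences were 3.68 for Tlr3 and -3.08 for Tlr13. The ratio of Tlr13 to Tlr3 was 27.6 ± 1.3 before and 0.224 ± 0.0015 after LPS. Tlr9 was at 9.981, 9.711 and 9.485 FPKM, 1.30-fold lower than untreated (log2 difference -0.34 ± 0.072, adjusted p = 0.00034), which came to -1.09 with equal sums and so past 2-fold, and to -0.49 under quantile normalization. Tlr7 was at 158.6, 173.7 and 162.4 FPKM, a log2 difference of 0.45 (adjusted p = 1e-05) that turned to -0.36 with equal sums (0.31 above the median of all genes) and to -0.68 under quantile normalization (0.51 below it). Tlr8 at 57.96, 63.19 and 58.23 FPKM gave 0.36 (adjusted p = 0.0009), which turned to -0.43 and -0.48 under these scalings. The median of all genes was -0.67 and -0.17 there. Under median-ratio scaling Tlr7 and Tlr8 stayed at 0.47 and 0.38. As equal sums and quantiles turned both genes, no direction is given for Tlr7 and Tlr8 in WT cells. The endosomal share of the summed TLR level was 43.9% ± 0.67 after LPS in WT cells, against 73.7% before.

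In Pim1-/- cells LPS moved 8 of the 10 genes up past the test, against 43.2% of all genes, and 2 down, against 44.0%, where the 8 include Tlr8 and Tlr9, whose direction depended on the scaling. More than 2-fold higher were 6, against 14.6% of all genes, and more than 2-fold lower was Tlr13 alone (1 of 10), against 10.4%. No gene of the 10 overlapped between untreated and LPS-treated libraries, as in 83.8% of all genes, and the median log2 difference was 1.80 over the 10 genes and -0.01 over all. Tlr2, at 12.78 to 13.71 FPKM without LPS, reached 330.1, 338.0 and 344.1 FPKM with it, a 25.6-fold rise of the mean (log2 difference 4.58 ± 0.039, adjusted p = 4.2e-21). Its partners rose as well. Tlr1 reached 59.79, 61.40 and 53.59 FPKM, 10.0-fold above untreated. Tlr6 reached 23.21, 24.27 and 23.62 FPKM, 6.58-fold above untreated. The same held for the LPS co-receptor and for the RNA receptor TLR3. Cd14 reached 1768, 1656 and 1673 FPKM, 10.6-fold above untreated, and Tlr3 reached 48.07, 48.43 and 47.37 FPKM, 20.1-fold above untreated. Under quantile normalization the log2 difference of Cd14 went from 3.40 to 2.56. Tlr7 reached 186.5, 200.5 and 162.7 FPKM and was 2.27-fold above untreated (log2 difference 1.17 ± 0.066, adjusted p = 9.9e-11), which came to 0.51 with equal sums and 0.34 under quantile normalization and so no longer passed 2-fold. Tlr13 fell 3.42-fold to 33.42, 34.29 and 29.78 FPKM, and Tlr4 fell 1.62-fold to 18.66, 18.89 and 15.49 FPKM (adjusted p = 3.2e-13 and 1.1e-06). The log2 difference of Tlr4 was -1.06 under quantile normalization, and Tlr4 passed 2-fold there and with equal sums. Tlr8 at 36.83, 37.39 and 28.85 FPKM and Tlr9 at 2.516, 3.066 and 3.095 FPKM had log2 differences of 0.50 and 0.42, which turned to -0.15 and -0.04 with equal sums (0.44 and 0.54 above the median of all genes).

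**Figure D3:**
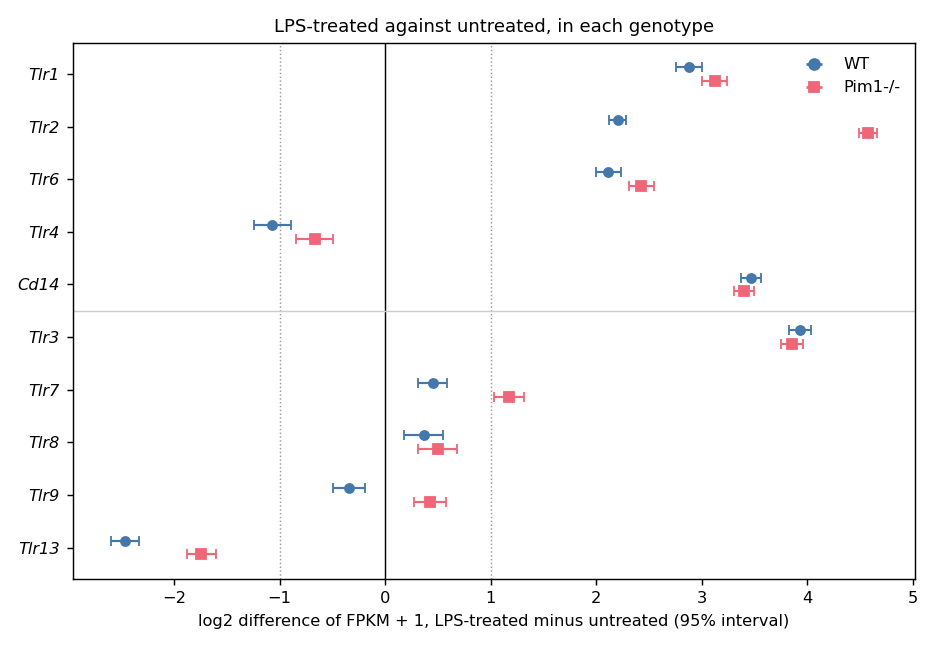
Log2 difference of FPKM + 1 between LPS-treated and untreated BMDMs (horizontal axis) for each gene, in WT (circles) and Pim1-/- cells (squares), with 95% intervals from the limma fit; dotted lines mark 2-fold. The intervals of Tlr2 lie apart, at 2.203 in WT and 4.58 in Pim1-/- cells, those of Cd14, Tlr3 and Tlr8 overlap, and Tlr13 and Tlr4 lie left of 0 in both genotypes.

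Between the genotypes after LPS, the comparison for which the study sequenced these cells, Tlr13, Tlr4, Tlr2 and Tlr7 were higher in Pim1-/- cells and Tlr9, Tlr1, Tlr8, Tlr6, Tlr3 and Cd14 were lower, although Tlr3 and Cd14 turned with the scaling of libraries. All of the 10 genes passed the test, 4 higher and 6 lower, against 37.6% and 43.4% of all genes. More than 2-fold higher was Tlr13 (1 of 10), against 3.51% of all genes, and more than 2-fold lower were Tlr9 and Tlr1 (2 of 10), against 5.15%. The groups did not overlap in 9 of the 10 genes, against 77.5% of all genes. The median log2 difference was -0.14 over the 10 genes and -0.03 over all. Of the genes past 2-fold 40.5% were higher, which became 60.1% with equal sums and 48.1% under quantile normalization. The 10 macrophage markers summed to 29818 to 30331 FPKM in LPS-treated WT and to 14684 to 16428 FPKM in LPS-treated Pim1-/- libraries, and their part in the TLR differences was not tested here either.

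Tlr2 was now 1.56-fold higher in Pim1-/- than in WT cells, at 330.1 to 344.1 against 213.4 to 219.8 FPKM with no overlap (log2 difference 0.64 ± 0.039, adjusted p = 6.6e-10). Its partner Tlr1 stayed 2.18-fold lower (log2 difference -1.11 ± 0.056, adjusted p = 7.9e-11), which came to -0.91 with equal sums and -0.78 under quantile normalization and so no longer passed 2-fold. The ratio of Tlr2 to Tlr1 was 1.71 ± 0.0061 in LPS-treated WT and 5.82 ± 0.53 in LPS-treated Pim1-/- cells. Tlr6 was 1.24-fold lower (log2 difference -0.29 ± 0.054, adjusted p = 0.00015), a difference that came to -0.09 and -0.11 under these scalings and no longer passed the test. Tlr4 was 1.84-fold higher in Pim1-/- cells (log2 difference 0.81 ± 0.080, adjusted p = 2e-07), and Cd14 was 1.10-fold lower (log2 difference -0.13 ± 0.046, adjusted p = 0.017), which turned to 0.07 with equal sums and 0.01 under quantile normalization. Ly96 was lower in LPS-treated Pim1-/- cells (91.3 ± 3.2 against 51.1 ± 2.3 FPKM, log2 difference -0.82, adjusted p = 3.3e-09), and the ratio of Tlr4 to Ly96 was 0.105 ± 0.0053 in WT and 0.346 ± 0.034 in Pim1-/- cells.

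Among the endosomal receptors after LPS, Tlr13 was 2.72-fold higher in Pim1-/- cells, at 29.78 to 34.29 against 11.57 to 12.51 FPKM (log2 difference 1.37 ± 0.063, adjusted p = 2.7e-11). Tlr9 was 3.36-fold lower, at 2.516 to 3.095 against 9.485 to 9.981 FPKM (log2 difference -1.47 ± 0.072, adjusted p = 5.9e-11). Tlr8 was 1.74-fold lower, at 28.85 to 37.39 against 57.96 to 63.19 FPKM (log2 difference -0.79 ± 0.086, adjusted p = 5.6e-07). The Tlr7 groups overlapped, with 162.7 to 200.5 FPKM in Pim1-/- and 158.6 to 173.7 FPKM in WT cells. Its log2 difference of 0.15 (95% interval 0.01 to 0.29, adjusted p = 0.054) no longer passed the test without LPS-treated WT replicate 1 or 3, where it was 0.12 or 0.14, or without LPS-treated Pim1-/- replicate 1 or 2, where it was 0.13 or 0.08. It did not pass with no filter either (adjusted p = 0.11), while under quantile normalization it was 0.40 (adjusted p = 5.2e-05), so its size depended on the scaling. Tlr3 was 1.11-fold lower in Pim1-/- cells (log2 difference -0.15 ± 0.049, adjusted p = 0.012), which turned to 0.05 with equal sums and 0.08 under quantile normalization. The ratio of Tlr7 to Tlr8 was 2.76 ± 0.028 in WT and 5.36 ± 0.29 in Pim1-/- cells.

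**Figure D4:**
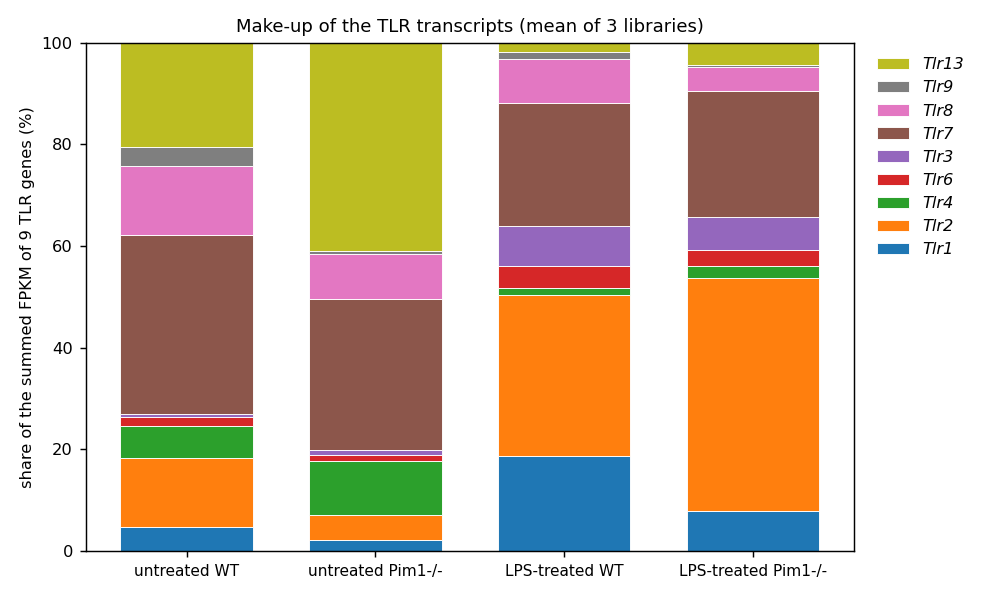
Share of each gene in the summed FPKM of the 9 TLR genes (vertical axis, percent), as the mean of 3 libraries in each of the 4 groups. Tlr13 took 40.9% in untreated Pim1-/- and 1.75% in LPS-treated WT cells, and Tlr2 took 4.88% in untreated and 45.8% in LPS-treated Pim1-/- cells.

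The difference between the responses to LPS was tested as an interaction, and 7 of the 10 genes responded further upward, or less far downward, in Pim1-/- than in WT cells, against 32.7% of all genes past the test in that direction. In the other direction passed 0 of 10, against 35.8% of all genes, or 4.43% when more than 2-fold was also asked. Only Tlr2 also exceeded 2-fold (1 of 10), against 2.24% of all genes, with a response 2.37 ± 0.055 larger on the log2 scale (adjusted p = 1.9e-13). The other 6 were Tlr9 (0.77 ± 0.10), Tlr13 (0.72 ± 0.089), Tlr7 (0.72 ± 0.093), Tlr4 (0.40 ± 0.11), Tlr6 (0.31 ± 0.077) and Tlr1 (0.24 ± 0.079), with adjusted p from 4.9e-06 to 0.015. For Tlr13 and Tlr4 this means a smaller fall, and for Tlr9 a fall in WT against a log2 difference of 0.42 in Pim1-/- cells. Tlr8 (0.13, 95% interval -0.13 to 0.39), Cd14 (-0.07, -0.21 to 0.07) and Tlr3 (-0.08, -0.22 to 0.07) did not pass, and the values of Cd14 and Tlr3 turned positive under quantile normalization and with equal sums. Tlr8 passed without LPS-treated Pim1-/- replicate 3, where it was 0.25, with equal sums at 0.29 (adjusted p = 0.041) and under quantile normalization at 0.58 (adjusted p = 0.0013). The median over the 10 genes was 0.36, and over all genes 0.00. Each of the 7 values rests on the same 12 libraries as the comparisons above, so it is no independent evidence beside them.

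Promoter sequence was read for the genes with the most contrasting responses. RefSeq windows (GRCm38.p6) matched 7 of the 10 genes, with 9 windows, since Tlr1 and Tlr6 have a pair each, and motifs were searched in 300 bases on both strands. The motifs were the kappaB site (GGG and CC around 5 bases of any kind, bound by NF-kappaB), the ISRE core (a pair of GAAA around 2 bases of any kind, for interferon regulatory factors), the GAS site TTCNNNGAA (STAT factors), the AP-1 site TGACTCA and the PU.1 core GAGGAA, and in the windows shown no match of one motif overlapped a match of another. The kappaB letters stood in 3 of the 9 windows, against 50.8% of 32851 windows of this length, and the ISRE core in 1, against 3.4%. GAS letters stood in 3 windows, against 8.3%, AP-1 in 1, against 5.2%, and the PU.1 core in 4, against 28.3%. Matches describe letters in these windows and are not shown to be bound. The windows of Tlr2, which had the largest difference in LPS response, of Tlr3 and Tlr6, which rose in both genotypes, and of Tlr9, the gene with the largest genotype difference, are given from 250 bases before to 5 bases after the start, 5′ to 3′ along the gene. Capitals mark motif matches.
Tlr2, chr3:83841604-83841858, minus strand: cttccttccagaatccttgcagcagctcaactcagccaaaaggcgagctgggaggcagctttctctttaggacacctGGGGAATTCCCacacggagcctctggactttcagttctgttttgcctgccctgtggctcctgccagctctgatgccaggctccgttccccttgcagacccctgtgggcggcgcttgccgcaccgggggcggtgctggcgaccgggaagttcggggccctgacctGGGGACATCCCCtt
Tlr6, chr5:64959162-64959416, minus strand: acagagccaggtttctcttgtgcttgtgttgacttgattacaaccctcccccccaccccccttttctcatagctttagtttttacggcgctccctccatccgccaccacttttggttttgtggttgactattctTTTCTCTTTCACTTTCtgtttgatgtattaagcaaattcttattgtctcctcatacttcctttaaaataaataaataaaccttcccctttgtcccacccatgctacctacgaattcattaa
Tlr3, chr8:45410376-45410630, minus strand: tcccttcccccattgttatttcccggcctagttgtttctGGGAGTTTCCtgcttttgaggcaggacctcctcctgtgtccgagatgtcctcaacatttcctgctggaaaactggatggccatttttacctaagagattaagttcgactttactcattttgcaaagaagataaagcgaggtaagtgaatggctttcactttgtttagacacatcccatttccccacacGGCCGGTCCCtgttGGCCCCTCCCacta
Tlr9, chr9:106222348-106222602, plus strand: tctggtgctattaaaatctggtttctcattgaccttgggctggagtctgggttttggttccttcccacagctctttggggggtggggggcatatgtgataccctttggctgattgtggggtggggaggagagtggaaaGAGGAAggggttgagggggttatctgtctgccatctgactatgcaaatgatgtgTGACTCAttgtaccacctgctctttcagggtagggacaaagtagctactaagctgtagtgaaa
In Tlr2 both capital runs are overlapping kappaB matches, the second at the start itself. In Tlr3 all 3 runs are kappaB matches, of which the last pair lies within 23 bases of the start. In Tlr6 the capital run is 2 overlapping ISRE cores on the opposite strand, 116 bases before this start, which is the start nearer the 3′ end of its pair. The other Tlr6 window, not shown, held no ISRE core but a kappaB match at -99 and GAS matches at -3 and 7 relative to its start. Tlr1 also rose with LPS in both genotypes, and its windows held a GAS match and a PU.1 core but no kappaB or ISRE letters. In Tlr9 the first run is the PU.1 core and the second the AP-1 site, 58 bases before the start, and no kappaB or ISRE letters were found in its window.

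Receptors depend on proteins that fold, carry and cleave them, on proteins that hand over ligands and on TIR adaptors, and 28 such genes were examined, of which 26 were tested and Lbp and Sarm1 were below the filter. In untreated cells the level in Pim1-/- libraries passed as lower for 18 of the 26 and as higher for 6, against 44.2% and 34.6% of all genes, with a median log2 difference of -0.39 against -0.05 over all genes. After LPS 18 were lower and 7 higher, against 43.4% and 37.6% of all genes, with a median of -0.43 against -0.03. These counts were not recomputed under other scalings. The median of all genes after LPS moved to 0.12 with equal sums and 0.01 under quantile normalization, so small differences could turn. Of the genes for ligand handling, Ly86, whose product accompanies CD180, was lower in Pim1-/- cells, with log2 differences of -1.47 untreated and -1.13 after LPS (adjusted p = 8e-13 and 1.9e-11). Cd36, a scavenger receptor that assists TLR2, was at 39.2 ± 2.8 FPKM in untreated WT and at 90.6 ± 9.7 FPKM in untreated Pim1-/- cells (log2 difference 1.183, adjusted p = 6.8e-09), and at 40.0 ± 0.87 and 100 ± 12 FPKM after LPS (1.29, adjusted p = 1.9e-09).

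Unc93b1, the chaperone that brings the endosomal receptors to their compartment, was at 333 ± 18 FPKM in untreated WT and at 120 ± 7.8 FPKM in untreated Pim1-/- cells (log2 difference -1.47, adjusted p = 6.3e-12). After LPS it was at 361 ± 14 and 188 ± 14 FPKM (-0.94, adjusted p = 1.2e-09). Other genes listed for folding and trafficking went otherwise. Cnpy4 was higher in Pim1-/- cells (0.48 untreated and 0.75 after LPS), and Hsp90b1 was higher untreated (0.24) and lower after LPS (-0.39). Slc15a3, an endolysosomal peptide transporter, rose with LPS by 3.49 in WT and by 3.61 in Pim1-/- cells on the log2 scale (adjusted p = 9.1e-20 and 7.9e-20). In the endosome, Pld4, an exonuclease that degrades ligands of TLR9 and TLR7, was lower in Pim1-/- cells, with log2 differences of -1.42 untreated and -1.22 after LPS, and so was Lgmn, a protease that cleaves TLR9, with -1.09 and -0.88. Ctss and Ctsl, proteases that cleave TLRs, were higher in Pim1-/- cells both untreated (0.23 and 0.24) and after LPS (0.27 and 0.48). Ctsb of the same list was lower (-0.47 and -0.28), and Dnase2a was lower untreated (-0.24) and higher after LPS (0.74). The 4 tested TIR adaptors were lower in Pim1-/- cells in both states, as were 44.2% of all genes untreated and 43.4% after LPS. Myd88, the adaptor of all these TLRs but TLR3, was at 35.7 ± 0.83 and 23.1 ± 1.5 FPKM untreated and at 276 ± 1.7 and 144 ± 6.5 FPKM after LPS in WT and Pim1-/- cells, and Ticam1, which encodes TRIF, at 14.4 ± 0.065 and 8.33 ± 0.86 FPKM untreated and at 28.0 ± 0.71 and 21.4 ± 2.0 FPKM after LPS.

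**Figure D5:**
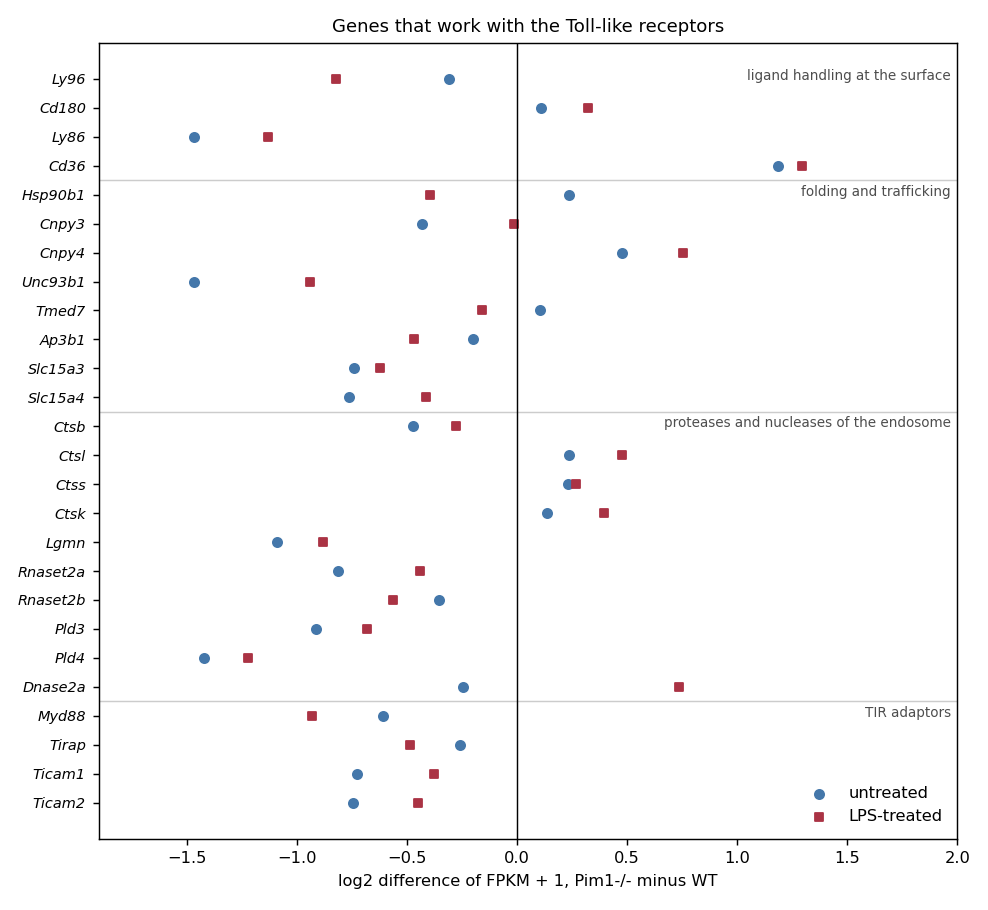
Log2 difference of FPKM + 1 between Pim1-/- and WT BMDMs (horizontal axis) for 26 genes that work with the TLRs, untreated (circles) and after LPS (squares), grouped by role. The 4 TIR adaptors, Ly86, Unc93b1, Lgmn and Pld4 lie left of 0 in both states, and Cd36 lies at 1.183 and 1.29.

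The genes whose levels followed a member most closely over the 12 libraries were named for Tlr4, Cd14 and Tlr9, as a description in which the libraries fall into 4 groups. They were picked for this likeness, so an order of groups shared with the member follows from the choice and is no separate result. For Tlr4 they were Oxct1 (Pearson r = 0.998), Zfp955b (0.996) and Lair1 (0.995). Lair1, an inhibitory receptor for collagen, was at 29.0 ± 1.9 FPKM in untreated WT, 45.3 ± 4.1 in untreated Pim1-/-, 12.5 ± 0.52 in LPS-treated WT and 25.4 ± 2.3 in LPS-treated Pim1-/- cells, the same order of groups as Tlr4. For Cd14 they were Herc6, Cd40 and Cd69, with r between 0.9995 and 0.9996, all of them low without LPS and high with it. For Tlr9 they were Neurl3 (0.995), Ppm1h (0.989) and Litaf (0.986). Neurl3 was at 72.4 ± 0.80 FPKM in untreated WT, 30.5 ± 1.5 in untreated Pim1-/-, 60.1 ± 0.53 in LPS-treated WT and 35.2 ± 1.6 in LPS-treated Pim1-/- cells, also in the order of Tlr9.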

How the data were processed

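RNA-seq of 12 BMDM libraries in 4 groups was used as deposited. Per the labels and the submitters' processing notes, reads were prepared with bcl2fastq 2.20.0.422 and cutadapt 1.18, mapped to mm10 (TopHat2 2.0.13) and quantified by the authors with Cuffdiff 2.2.1. The methods name rat rn5, while 98.6% of gene names matched mouse names. The deposited columns carry no unit and were read as FPKM, and how libraries were normalized is not given in the sources used here. Depth was estimated from steps in values up to 0.3 FPKM, of which 70.3% of 2987 lay within 0.05 of a whole multiple, taking fragments of 200 bases and the longest annotated transcript of each gene, so it is approximate.

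Genes with at least 1 FPKM in 3 libraries (10581) were fitted as 4 group means of log2(FPKM + 1) with limma 3.58.1 (R 4.3.3) and a mean-variance trend, with Benjamini-Hochberg adjustment over all of them. The thresholds were FDR under 0.1 and, for larger changes, also over 2-fold with p under 0.05. The fit was tested on simulated data. Names and positions came from GENCODE M21 (GRCm38). All 10 genes and Pim1 were named, with every partner gene free to be named and the 3 genes most correlated with Tlr4, Cd14 and Tlr9. The genes and lists were chosen with earlier results of these data known. A listed marker gene is not reported here. Replicate numbers are shared between groups. Same-numbered libraries deviated together over 3646 genes between untreated genotypes (r from 0.33 to 0.46) and between the untreated and LPS-treated Pim1-/- libraries (0.43 to 0.68). Between the other groups r ran from -0.17 to 0.52. Differently numbered libraries were not compared, so these values cannot show whether the numbers mark pairs. The main fit does not use the replicate number. Alternatives covered the pseudocount, filters, median-ratio, quantile and equal-sum scaling, fitting only the groups compared, no trend, the replicate block, another threshold and leaving out each library. Figures were drawn with matplotlib 3.10.9.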

Additional observations from a re-analysis of the deposited data

Results flagged for a closer look

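In 7 genes the response to LPS differed between the genotypes by the interaction test (limma, FDR under 0.1), which 32.7% of all genes passed upward and 35.8% downward. Values are the log2 response in Pim1-/- minus that in WT BMDMs. Tlr2 had the largest, 2.37, with 3 of 3 Pim1-/- libraries below WT before and above WT after LPS. For Tlr9 the value was 0.77, from a response of -0.34 in WT and 0.42 in Pim1-/- cells. Tlr7 and Tlr13 each gave 0.72, Tlr4 gave 0.40, Tlr6 gave 0.31 and Tlr1 gave 0.24.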

How the results depend on the processing

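Of 1090 recomputed values of the 10 genes, 1060 kept their direction and side of the threshold, and 37 of 50 results did so under every alternative. Many of these values could not change direction. The filters, fitting only the groups compared, no trend, the replicate block and the other threshold leave the log2 difference as it is. So does leaving out a library that is not in the comparison. Median-ratio scaling moved the log2 differences little, since its factors were 0.996 to 1.016 in the 12 libraries. The tally is therefore partly fixed in advance and does not measure how stable the directions are. Scaling libraries to equal FPKM sums and quantile normalization account for all 14 reversals. For LPS in WT cells, Tlr7 was -0.36 and -0.68 and Tlr8 -0.43 and -0.48 under equal sums and quantiles. For LPS in Pim1-/- cells, Tlr8 was -0.15 and Tlr9 -0.0433 under equal sums. Between the genotypes after LPS, Cd14 was 0.0748 and 0.0087 and Tlr3 0.0529 and 0.0824, and in the difference of responses Cd14 was 0.0816 and 0.0844 and Tlr3 0.0866 and 0.16. How the deposited values were normalized is not stated, but the median-ratio factors above show that they already stood close to a median-ratio scaling. Equal sums and quantiles depart from it, and which scaling is right was not tested.

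Of the 10 genes, the number past 2-fold lower after LPS between genotypes was 1 under both scalings, the numbers higher and lower with LPS in Pim1-/- cells 5 (without Tlr7) and 2 (with Tlr4), and the number with a larger response in Pim1-/- cells 3 under quantiles and 2 under equal sums. Tlr9 joined those lower with LPS in WT cells under equal sums (3 in all), and Tlr8 those lower untreated under quantiles (4 in all). Over all genes, equal sums gave 334 lower after LPS between genotypes, 1188 higher and 3744 lower with LPS in WT cells, and 973 and 2811 in Pim1-/- cells, against 545, 2130, 1556, 1546 and 1103. A pseudocount of 0.1 gave 583 lower untreated, 717 higher after LPS and 510 with a larger response, against 357, 371 and 237. At an FDR under 0.05 with no fold threshold, by construction more genes passed: 3465 higher and 4439 lower untreated, 3782 and 4412 after LPS, 4748 and 4705 with LPS in WT, 4446 and 4508 in Pim1-/- cells and 3137 and 3520 in the difference of responses. Of the 10 genes these were 2 and 6, 3 and 6, 7 and 3, 8 and 2, and 7 and 0.

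With the replicate number as a block, Cd14 in untreated cells passed (-0.06, adjusted p = 0.083), and no other call of the 10 genes changed. Cd14 in untreated cells also passed under quantile normalization (-0.08, adjusted p = 0.092). Leaving out each library kept every more-than-2-fold call of the 10 genes. The fewest fragments behind a value were about 240, for Tlr9 in an untreated Pim1-/- library.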

Other observations

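The remaining mouse TLR genes were near or at 0 in these BMDMs. Tlr5, the flagellin receptor, was at 0.2993, 0.2305 and 0.2876 FPKM in untreated WT and at 0.1665, 0.1743 and 0.09828 FPKM in untreated Pim1-/- libraries, and at no more than 0.04274 FPKM after LPS. Tlr11 did not exceed 0.1109 FPKM, the highest value being in an LPS-treated WT library. Tlr12 was listed at 0 in 10 of the 12 libraries and reached 0.02873 FPKM at most.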
